A study of Rattus norvegicus with 4 samples.

Results

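Growth factors that build blood vessels and repair the gut lining, and the receptors that bind them, were examined in rat colon. The group holds 7 ligands (Egf, Tgfa, Areg, Fgf7, Fgf2, Hgf and Vegfa) and 3 receptors (Egfr, Met and Kdr). A transcript row was taken for a gene when its RefSeq accession belonged to that symbol in the RefSeq gene table and the row held a value on all 4 arrays. Each of the 10 genes had 1 such row, out of 18350 measured rows. Colon RNA came from 2 male rats of the control group and 2 male rats of the MSCT group, which received mesenchymal stem cells (MSCs) by the tail vein after colitis was induced with TNBS, and 1 one-color NimbleGen array was hybridized per rat. The paper names the strain as Sprague Dawley, the cells as GFP-labeled MSCs of a commercial supplier, and the tissue as colon from the lesion; the labels give no age. The control animals are normal rats in the sample descriptions and IBD rats in the paper, and the series design uses both names, so no disease state is given to them here. The paper places the chips on different days in its Methods and its Results, and no day is used here.

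These factors act through receptor tyrosine kinases, which signal into the cell once a ligand binds outside it. EGF, TGF-alpha and amphiregulin all bind the EGF receptor, which drives the migration and division of the gut epithelium after injury. FGF7 and HGF are made by mesenchymal cells and act on epithelium, FGF7 through a splice form of FGFR2 and HGF through MET. FGF2 acts on fibroblasts and endothelium, and VEGF-A acts on endothelium through KDR. MSCs are known to release several of these factors in culture. RNA of donor cells, if present, is part of the tissue RNA measured here.

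Values are log2 of the deposited intensity, and a difference is the mean of the MSCT arrays minus the mean of the control arrays. The limma test was applied to all measured rows, and genes were counted with the limits that the paper states for its chips, a p under 0.05 and a fold change over 2. The paper does not say whether that p was adjusted, and the unadjusted limma p was used for this screen. With a plain equal-variance test in place of limma, 388 of all rows passed the same limits unadjusted, and 0 had an adjusted p under 0.05. The paper's Results give the same total for its chips. The limma screen passed 850 rows, so it is the looser of the 2 here. With 2 rats in each group, the smallest two-sided p of an exact permutation test is 0.333, and the limma values depend on a variance shared among rows. In tissue RNA, fewer cells of a type and less RNA per cell cannot be told apart.

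Of the 10 genes, 2 passed the screen, the ligands Egf and Fgf7, both higher in the MSCT group. By the plain test in place of limma, 1 of the 10 passed, Egf. Of all rows, 4.63% passed the limma screen, 2.12% as higher after MSCT and 2.51% as lower. The same 2 genes had an unadjusted p under 0.05, which 12.0% of all rows had. No gene of the group passed an adjusted p of 0.05, and neither did any other row (0.00%), where the count at an unadjusted p under 0.05 was 2196 rows. With the dimmest 50% of rows left out, Egf and Fgf7 among them, 247 rows had an adjusted limma p under 0.05, none of them for a gene of the group. Both MSCT values lay on one side of both control values for 6 genes, 4 of them higher in the MSCT group (Egf, Fgf7, Met and Egfr) and 2 lower (Hgf and Fgf2). Among all rows, 45.8% were separated in this way, 21.3% higher and 24.5% lower, so this count lies near that share. The median difference was 0.11 over the 10 genes and -0.02 over all rows. It was -0.17 over the 7 ligands, whose differences lay between -0.63 and 1.42. The 3 receptors lay between 0.05 and 0.31, and none of them passed the screen.

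**Figure D1:**
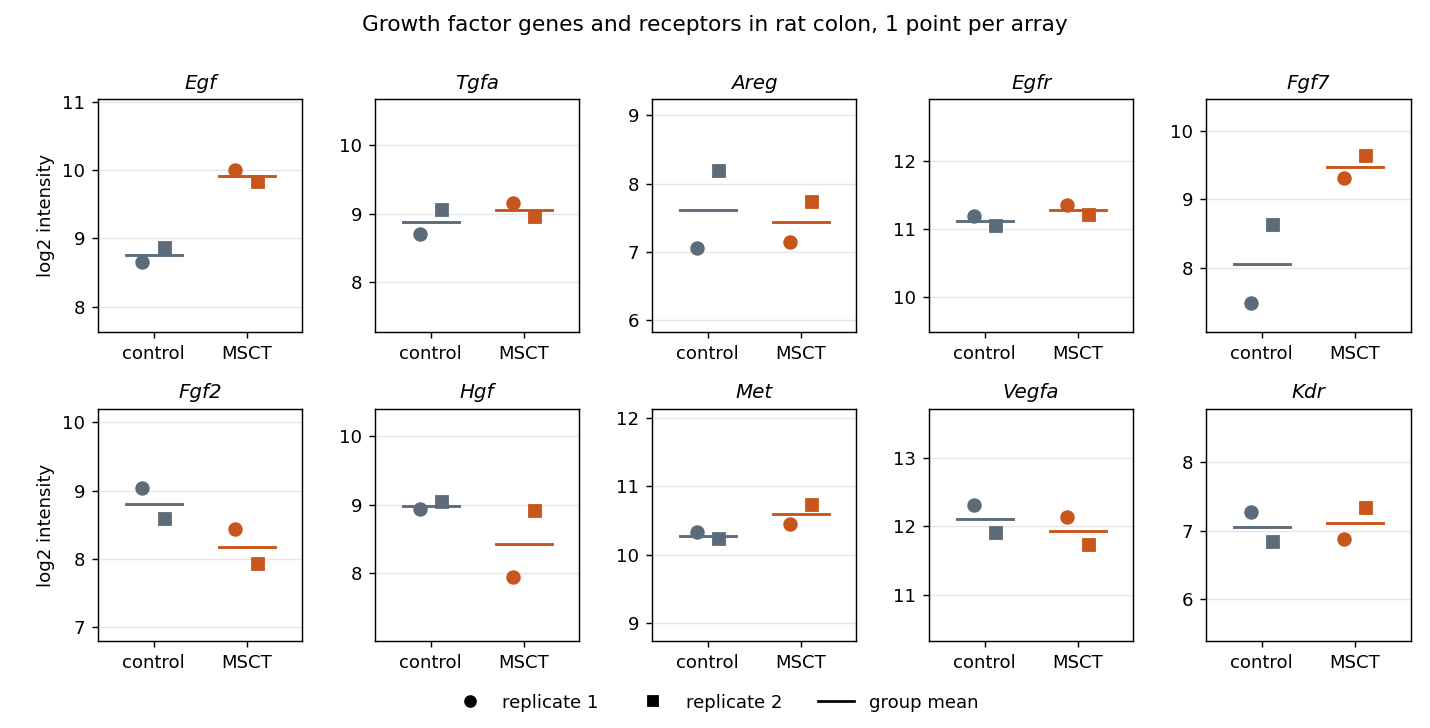
Log2 intensity (y axis) of each gene on the 2 control and 2 MSCT arrays, with circles for replicate 1, squares for replicate 2 and a line at the group mean; each panel has its own range of the same height. Egf and Fgf7 stand higher on both MSCT arrays, while in Hgf only MSCT replicate 1 stands apart and in Areg the 2 control arrays are far apart.

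Egf encodes epidermal growth factor. Its intensity was 401 and 463 in control rats and 1019 and 906 after MSCT, in the order of the replicates. Both MSCT arrays were higher than both control arrays, and the gap between the groups was wider than either gap between replicates. On the log2 scale the control group was at 8.75 ± 0.15 and the MSCT group at 9.91 ± 0.12 (SD, n = 2 each). The difference was 1.16 (standard error 0.20, 95% interval 0.62 to 1.69), 2.23-fold, with an adjusted p of 0.260 by limma over all rows. Egf passed the screen when any 1 array was left out, with differences from 1.05 to 1.26. It also passed with a plain equal-variance test in place of limma. That is what the analysis of variance in the paper's statistics section gives for 2 groups, although no test is named for the chips, and it is called the methods' test here.

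To show the gene behind this difference, the 216 bases upstream of its annotated span are given, at chr2:220976332-220976547 of GRCr8 on the minus strand, from RefSeq. None of the motifs searched for stands in it, so it holds no capitals.
Egf: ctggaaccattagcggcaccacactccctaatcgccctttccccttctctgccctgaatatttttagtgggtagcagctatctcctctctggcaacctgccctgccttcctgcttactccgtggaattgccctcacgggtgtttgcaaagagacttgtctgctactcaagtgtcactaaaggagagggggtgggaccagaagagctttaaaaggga
The search covered the 250 bases before each annotated start of a gene on both strands, 11 windows for the 10 genes. It looked for TATAAA (the TATA box), GGGCGG (the GC box), CCAAT (the CCAAT box), ACGTG (the core of the hypoxia response element) and TGANTCA (the AP-1 site). These stand in 12.9%, 30.5%, 34.0%, 16.6% and 6.34% of the 33469 windows of that length. The other gene past the screen, Fgf7, holds CCAAT, printed here in its 30 bases at chr3:133735551-133735580 of GRCr8, plus strand, where the capitals are the reverse complement of that motif.
Fgf7: aggaatcctcttATTGGcatcagaagctaa
This stretch lies inside the annotated span of Fgf7. Counted by gene and not by window, GGGCGG was found before 5 genes of the group (Areg, Egfr, Kdr, Tgfa and Vegfa), CCAAT before 4 (Fgf7, Hgf, Kdr and Vegfa), TATAAA before 2 (Areg and Fgf7), ACGTG before 2 (Egfr and Fgf2) and TGANTCA before 0. For Vegfa, GGGCGG and CCAAT stood before different starts. No motif was found before both Egf and Fgf7.

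The other ligands of the EGF receptor did not pass the screen. Tgfa, which encodes TGF-alpha, was at 418 and 532 in control rats and 572 and 497 after MSCT. The groups overlapped, and the difference was 0.18 (95% interval -0.43 to 0.78). Areg encodes amphiregulin, and its intensity was 133 and 292 in control rats and 142 and 212 after MSCT. The control arrays lay 2.20-fold apart and enclosed both MSCT arrays. Its difference was -0.18 with the widest interval of the 10 genes (-1.42 to 1.06), and it was 0.39 without control replicate 2 and -0.75 without control replicate 1. Egfr, the receptor that these 3 ligands share, was at 2325 and 2106 in control rats and 2607 and 2348 after MSCT. The groups did not overlap, by 0.01 on the log2 scale. The difference was 0.16 (95% interval -0.35 to 0.68).

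Fgf7 encodes keratinocyte growth factor. Its intensity was 178 and 395 in control rats and 634 and 791 after MSCT. Both MSCT arrays were higher than both control arrays, but the control arrays differed from each other by 2.22-fold. On the log2 scale the control group was at 8.05 ± 0.81 and the MSCT group at 9.47 ± 0.22 (SD, n = 2 each). The difference was the largest of the 10 genes, 1.42 (standard error 0.44, 95% interval 0.25 to 2.59), 2.67-fold, with an adjusted p of 0.356 by limma. Without control replicate 1 the difference was 0.84, 1.79-fold and below the limit of the screen, without control replicate 2 it was 1.99, and without MSCT replicate 2 it was 1.26 and its unadjusted p no longer passed. By the methods' test on the same log2 values, Fgf7 did not pass.

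Fgf2, the basic fibroblast growth factor, lay in the opposite direction. Its intensity was 525 and 385 in control rats and 348 and 243 after MSCT. Both MSCT arrays were lower than both control arrays, and replicate 1 was the higher array in each group. The difference was -0.63 (standard error 0.29, 95% interval -1.41 to 0.15; limma adjusted p = 0.485), so the interval includes 0, and it stayed below 0 with any 1 array left out (-0.89 to -0.37).

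**Figure D2:**
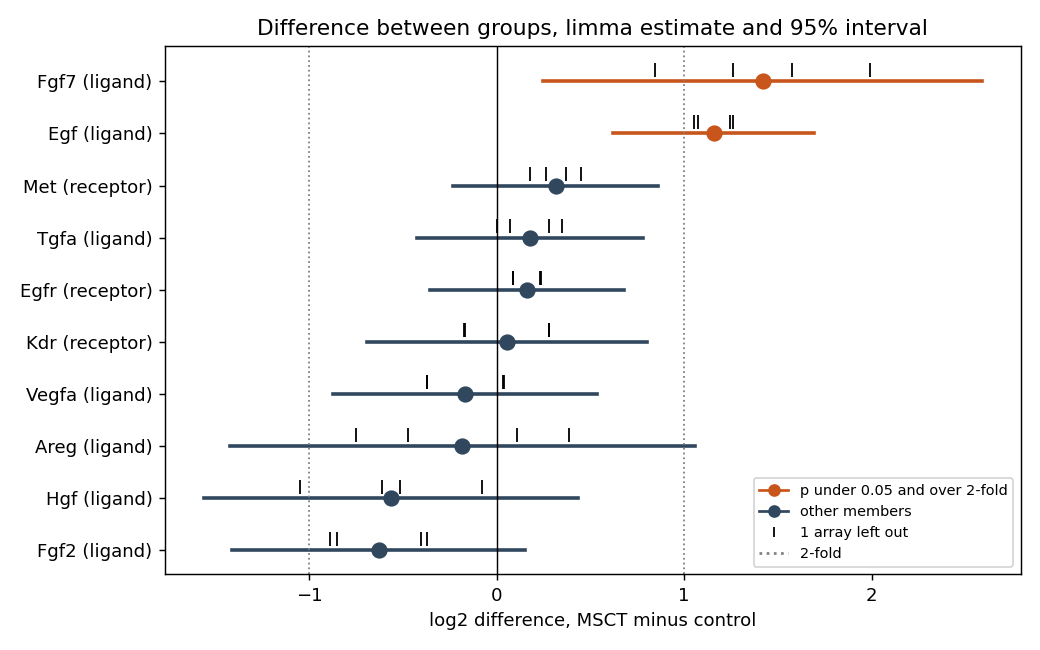
Log2 difference of MSCT minus control (x axis) for each gene, with the limma estimate as a circle, its 95% interval as a line and the 4 estimates with 1 array left out as ticks above it; dotted lines mark 2-fold. The intervals of Egf and Fgf7 lie above 0 (0.62 to 1.69 and 0.25 to 2.59), and those of the other 8 genes include it.

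Hgf encodes hepatocyte growth factor. Its intensity was 490 and 524 in control rats and 245 and 480 after MSCT. MSCT replicate 2 was within 0.03 of the lower control array on the log2 scale, and MSCT replicate 1 stood apart, 1.96-fold below the other MSCT array. The difference was -0.56 (standard error 0.37, 95% interval -1.56 to 0.43; limma adjusted p = 0.591). It was -0.08 without MSCT replicate 1, and -1.05 without MSCT replicate 2, where Hgf passed the screen as lower. Met, the receptor of HGF, was at 1289 and 1197 in control rats and 1406 and 1697 after MSCT. Both MSCT arrays were higher than both control arrays, and the difference was 0.31 (95% interval -0.23 to 0.86; limma adjusted p = 0.588). With any 1 array left out it lay between 0.18 and 0.45.

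Vegfa encodes the main growth factor of endothelial cells. Its intensity was 5057 and 3819 in control rats and 4508 and 3393 after MSCT. The groups overlapped, and replicate 1 was higher than replicate 2 by 1.32-fold in the control group and by 1.33-fold in the MSCT group. The difference was -0.17 (95% interval -0.87 to 0.54), and it was 0.03 without control replicate 1 and 0.04 without MSCT replicate 2. Kdr, its receptor on endothelium, was at 156 and 114 in control rats and 118 and 162 after MSCT. The values of one group were almost those of the other in turned order. The difference was 0.05 (95% interval -0.69 to 0.80), and leaving out control replicate 2 turned it to -0.17, control replicate 1 to 0.28. Kdr and Areg were among the dimmest 25% of rows, whose replicates had a median SD of 0.47 in log2 units. Egf, Fgf7, Fgf2, Hgf and Tgfa lay in the next 25% (median SD 0.31), Met and Egfr in the 25% above (0.19) and Vegfa in the brightest 25% (0.14).

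Lists of the pathways around these genes held 75 measured genes of the 111 listed. In total, 9 passed the screen as higher and 1 as lower in the MSCT group, which is 13.3% of the measured genes beside 4.63% of all rows. The lists were chosen with earlier results of these data known, and 1 gene was taken out afterwards, so this share is no test of them. The median difference of the 75 genes was 0.16, and 0 had an adjusted limma p under 0.05. Of the 75, 46 were higher and 29 lower, and of all rows 8809 were higher and 9541 lower. Past the screen, 2.12% of all rows were higher and 2.51% lower, the shares to set beside each list below. An unadjusted limma p under 0.05 was found for 15 higher and 5 lower genes, and for 12.0% of all rows. For all 10 genes past the screen, both MSCT values lay on one side of both control values, as they did for 45.8% of all rows. These genes were picked by the screen, so their separation adds no support. Leaving out single arrays, 5 of the 10 always passed the screen (Phlda1, Fosl1, Dusp4, Ndrg1 and Hk2).

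**Figure D3:**
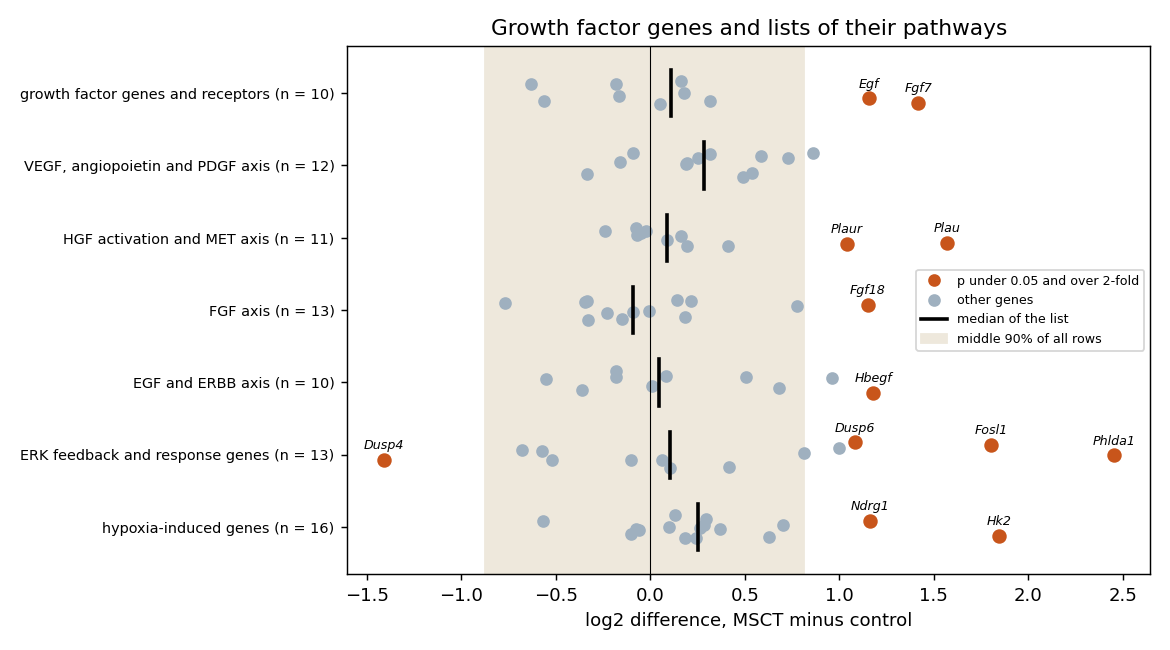
Log2 difference of MSCT minus control (x axis) for each measured gene of the group and of 6 pathway lists, with genes past the screen in orange and named, the list median as a bar and the middle 90% of all rows shaded (-0.88 to 0.82). The list medians lie between -0.09 and 0.28, while single genes such as Phlda1 (2.45) and Dusp4 (-1.41) stand outside the shaded range.

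In the list of HGF activation and MET signaling, 2 of 11 measured genes passed the screen as higher and 0 as lower (median difference 0.09). Both belong to the urokinase system, whose protease can activate HGF. Plau, the urokinase, was at 217 and 140 in control rats and 362 and 738 after MSCT, and differed by 1.57 (standard error 0.44; limma adjusted p = 0.338). Plaur, its receptor, was at 801 and 702 against 1605 and 1479, a difference of 1.04 (standard error 0.20; limma adjusted p = 0.276). The MSCT arrays were higher than the control arrays for both, with the closer replicates in Plaur. Each passed the screen in 2 of the 4 fits with 1 array left out: Plaur did not pass without control replicate 2 or MSCT replicate 1 (0.94 at the lowest), and Plau did not without control replicate 2 or MSCT replicate 2. The serine protease St14 and the inhibitors Spint1 and Spint2, which regulate HGF activation on epithelium, differed by 0.16, 0.09 and -0.07.

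In the FGF list, 1 of 13 measured genes passed the screen (median difference -0.09). Fgf18, a ligand of the FGF8 subfamily, was at 155 and 126 in control rats and 316 and 304 after MSCT. The difference was 1.15 (standard error 0.21; limma adjusted p = 0.267), and it was 1.00 without control replicate 2, just under the limit of the screen. Fgfr3, one of the FGF receptors, was lower by less than 2-fold, at 3283 and 3307 against 1873 and 1992 (difference -0.77, standard error 0.18; limma adjusted p = 0.312). Its replicates were within 0.09 of each other on the log2 scale in both groups. Fgfr2, which carries the FGF7 receptor, was matched to no row and was not analysed here. Fgf10, the closest relative of Fgf7, differed by 0.78 (95% interval -0.38 to 1.93), and its groups overlapped. Fgf22, of the same subfamily, differed by -0.35 (95% interval -1.01 to 0.32), at 312 and 428 in control rats and 312 and 264 after MSCT.

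In the list of the EGF family and its receptors, 1 of 10 measured genes passed the screen (median difference 0.05), and at an unadjusted p under 0.05 there were 3 higher (Hbegf, Rhbdf1 and Nrg1, the last by 0.96) and 1 lower (Adam17, by -0.55). Hbegf, a further ligand of the EGF receptor, was at 498 and 423 in control rats and 1333 and 812 after MSCT. The difference was 1.18 (standard error 0.31; limma adjusted p = 0.330), with 0.82 without MSCT replicate 1, where it did not pass. It did not pass without control replicate 2 either. Rhbdf1, an inactive rhomboid protein that takes part in the release of EGF family ligands, differed by 0.68 (standard error 0.20; limma adjusted p = 0.343). Btc and Ereg, the remaining measured ligands of this receptor, differed by 0.51 and 0.01, and the receptor genes Erbb2 and Erbb3 by -0.18 and -0.36.

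In the list of VEGF, angiopoietin and PDGF genes, 0 of 12 measured genes passed the screen by limma, and the unadjusted p of 1 was under 0.05. No angiopoietin or angiopoietin receptor gene was among the measured genes. The median difference was 0.28, the highest of the 6 lists, with 9 genes higher and 3 lower, beside 8809 higher and 9541 lower of all rows. Ranked by mean intensity from the dimmest row, Vegfd, Apln, Esm1 and Aplnr stood at 0.41%, 3.62%, 5.01% and 5.13% of all rows. All of them were among the higher genes. The 3 lower genes, Nrp1, Flt4 and Nrp2, stood at 25.6%, 26.7% and 71.2%. Apln, the peptide apelin of growing vessels, was at 106 and 83.9 against 177 and 139 (difference 0.73, standard error 0.24; limma adjusted p = 0.382). Pdgfrb, the PDGF receptor of pericytes and fibroblasts, differed by 0.86 (95% interval -0.08 to 1.80), and the VEGF receptor Flt1 by 0.59 (95% interval -0.29 to 1.46).

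Genes that respond to ERK, the kinase that these receptors activate, gave 4 of 13 past the screen, 3 higher and 1 lower, with a median difference of 0.10. Of all rows, 4.63% passed, 2.12% as higher and 2.51% as lower. Phlda1 was at 3880 and 3952 in control rats and 19347 and 23769 after MSCT, and differed by 2.45 (standard error 0.21; limma adjusted p = 0.257). Fosl1, a subunit of the AP-1 factor, differed by 1.80 (standard error 0.33), and its control arrays lay apart, at 89.6 and 153. The phosphatases that switch off MAP kinases went both ways: Dusp6 differed by 1.08 (standard error 0.25) and Dusp4 by -1.41 (standard error 0.29). Without MSCT replicate 1, Dusp6 was at 0.84 and did not pass. The ERK inhibitor Spry2 differed by 0.06 and the early gene Egr1 by -0.10. Myc differed by 0.999, just under the 2-fold limit, Ier3 by 0.82, Ccnd1 by 0.42 and Fos by -0.52. Of the 13 genes, 8 were higher and 5 lower, so the members of this list did not all move together.

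**Figure D4:**
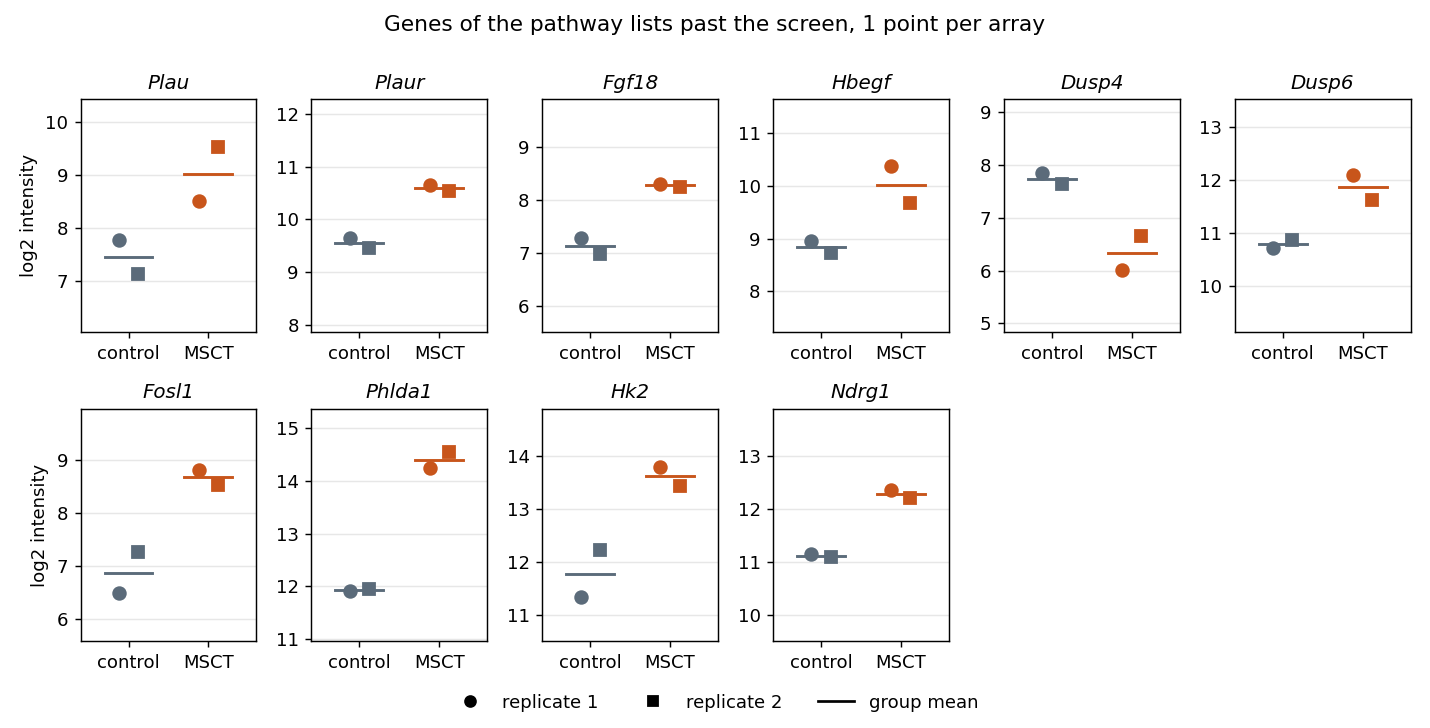
Log2 intensity (y axis) on each array for the 10 genes of the pathway lists past the screen, drawn as for the growth factor genes (circles replicate 1, squares replicate 2, line at the group mean). The MSCT arrays are above the control arrays for 9 genes and below them for Dusp4, and the replicates are closest for Phlda1 in the control group (0.03 apart).

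Low oxygen raises Vegfa in many cells, so genes known to respond to it were counted beside it. The list also held Hif1a, Epas1 and Arnt, which encode factors that carry out this response. Of 16 measured genes, 2 passed the screen as higher, Hk2 (difference 1.85, standard error 0.37) and Ndrg1 (1.16, standard error 0.19), and 0 as lower, with a median of 0.25. Of the 16 genes, 12 were higher and 4 lower, beside 8809 higher and 9541 lower of all rows. At an unadjusted limma p under 0.05 there were 4 higher and 1 lower. The factor genes are part of these counts: Hif1a was among the 4 higher, Epas1 was the 1 lower, and Arnt differed by 0.13. P4ha1 differed by 0.63 (standard error 0.18, 95% interval 0.15 to 1.11). The glucose transporter Slc2a1 and Adm differed by 0.18 and 0.28, and Ldha by -0.10. Hif1a and Epas1, the oxygen-regulated factors themselves, differed by 0.70 and -0.57, both at an unadjusted p under 0.05 (limma adjusted p = 0.369 and adjusted p = 0.403).

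The tissue label was checked with markers of the cell types a colon piece holds. Of 14 measured epithelial markers, 13 lay in the brightest 25% of rows, as did all 5 of smooth muscle. The lowest single intensity of a marker was 149. Only rows with a value on all 4 arrays were used, so an absent marker could not be seen. Of the 7 leukocyte markers with a row, 5 were measured. The summed intensity of the 14 epithelial markers was 256615 and 258885 in control rats and 281787 and 274666 after MSCT. Beside Egf, Tgfa and Areg, which epithelium also makes, this is a ratio of 1.08 between the groups. For the 5 measured of 10 fibroblast markers, beside the mesenchymal genes Fgf7, Hgf and Fgf2, the sums were 45404 and 31020 against 46890 and 50295. Col1a2 and Col3a1 were higher on both MSCT arrays (differences 0.62 and 0.78), while Dcn, Lum and Thy1 differed by 0.01, 0.03 and -0.22. Control replicate 2 had the lowest sum, and Fgf7 was lowest in control replicate 1. The part of fibroblasts in the Fgf7 difference was not tested. For the 5 of 10 endothelial markers, beside Vegfa and Kdr, the sums were 6430 and 5599 against 6329 and 7018, so the groups overlapped. Of these markers, 4 were higher and 1 lower. Eng differed most, by 0.85, at 217 and 208 against 366 and 401. The smooth muscle sums were 171485 and 141287 against 159204 and 154976, with a ratio of 1.00. Leukocyte markers differed most: all 5 measured of 11 had a higher mean in the MSCT group, 2 of them past the screen (Cd68 by 1.29 and Aif1 by 1.39). Coro1a and Lyz2 differed by 0.99 and 0.88. The T cell marker Cd3g differed by 0.13, and its groups overlapped (170 and 182 against 250 and 149). The sums of the leukocyte list were 2594 and 3110 against 5326 and 6823. Leukocytes also make Plau, Plaur and Hbegf, and the part of these cells in any difference given here was not tested.

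**Figure D5:**
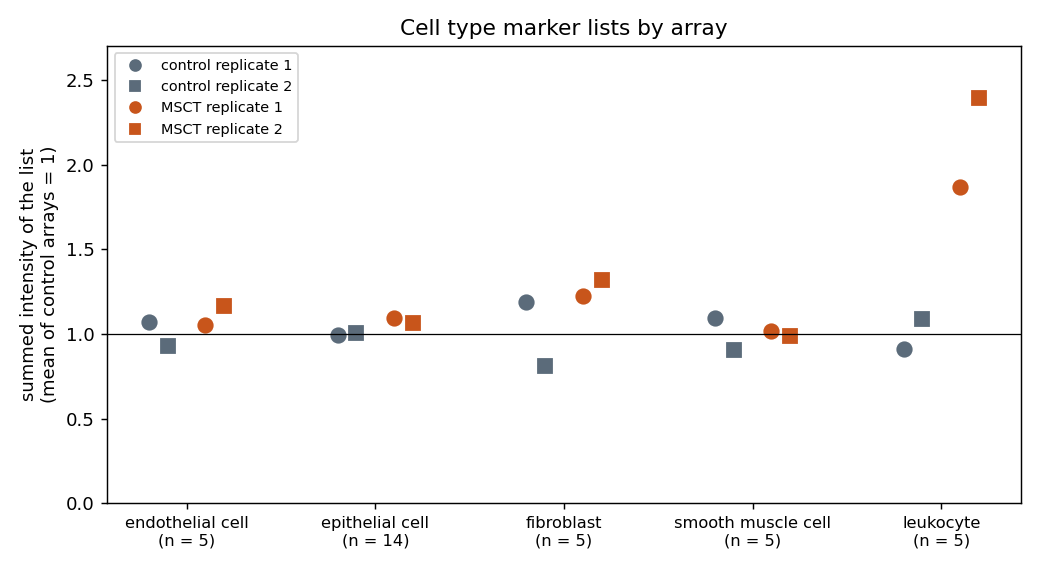
Summed intensity of each cell type marker list on each array, divided by the mean of the 2 control arrays (y axis, from 0), with circles for replicate 1 and squares for replicate 2. The leukocyte list has a ratio of 2.13 between the group means, and the other 4 lists have ratios from 1.00 to 1.27.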

How the data were processed

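The arrays were scanned with a GenePix scanner and extracted with NimbleScan, and the authors deposited linear intensity values, 1 per RefSeq transcript and array. The submitters' processing notes name RMA, an array method for background, scaling and the combination of probes; how it was applied is not given in the sources used here. The table has 26420 rows, of which 18350 were measured throughout and 8070 were blank throughout, by a rule not described. Array medians lay within 0.0747 of each other in log2 units. Values were used as log2 with no pseudocount, scaling or filter. The number of arrays limits the precision.

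The limma package (3.58.1, R 4.3.3; lmFit, then eBayes) compared MSCT with control over all measured rows, with Benjamini-Hochberg adjustment over them, and the test was checked on simulated data. Rows were named by unversioned accession with the RefSeq gene table of GRCr8 (7068 rows, 38.5%), used for names; sequences are from RefSeq. Where a gene had several rows, the one with the highest mean was used. All 10 members are named, and of each pathway list the genes past the screen or, where fewer than 2 passed, those with the smallest p up to 2. St14, Spint1, Spint2, Fgf10, Fgf22, Btc, Ereg, Erbb2, Erbb3, Flt1, Vegfd, Aplnr, Esm1, Nrg1, Adam17, Dusp5, Myc, Fos, Ier3, Ccnd1, Spry2, Egr1, P4ha1, Slc2a1, Adm, Ldha, Hif1a, Epas1, Arnt, Col1a2, Col3a1, Dcn, Lum, Thy1, Eng, Cd68, Aif1, Coro1a, Lyz2 and Cd3g are named outside that rule, after their values were seen. The members and lists were chosen with earlier results of these data known, and 1 gene was taken out of a pathway list afterwards and is not reported here. The labels do not say whether rats shared a batch. Tables and figures were made with Python (3.11.15), pandas (2.3.3) and matplotlib (3.10.9). Alternatives were quantile normalization, equal medians, the methods' test, 2 filters on dim rows, other variance models, array weights, a replicate block, leaving out each array, a pseudocount of 50, linear means and the mean of a gene's rows.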

Additional observations from a re-analysis of the deposited data

How the results depend on the processing

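Of the 10 genes, 5 kept their direction and their side of the screen under every alternative that held them (Egf, Fgf2, Met, Tgfa and Egfr). Without single arrays, the sign turned for Vegfa (-0.37 to 0.04), Kdr (-0.17 to 0.28) and Areg (-0.75 to 0.39); it turned under no other alternative. The Vegfa difference was 0.0367 without MSCT replicate 2. The count past the screen, 2 in the reported fit, was 1 with the methods' test and lay between 1 and 2 with 1 array left out. The count at an unadjusted p under 0.05 was 1 with the methods' test. Without the dimmest 50% of rows, 3 of the 10 genes were still measured (Vegfa, Met and Egfr), and both counts were 0, because Egf and Fgf7 were among the rows left out. Egf had its lowest adjusted p, 0.0793, with the trend and robust options of eBayes set together. The count of all rows with an adjusted p under 0.05, 0 in the reported fit, was 387 with these options, 4 without the dimmest 25% of rows and 247 without the dimmest 50%, and none of these rows was 1 of the 10 genes. Over all rows, the count past the screen was 850, and it was 388 with the methods' test, 251 without the dimmest 50% of rows, 1565 without control replicate 2 and 1503 without MSCT replicate 2. Of the 10 pathway genes past the screen, 6 passed by the methods' test. The count of pathway genes past it was 7 without the dimmest 25% of rows and 5 without the dimmest 50%.

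The labels number the rats 1 and 2 in each group and name no shared litter or day. Across rows, the deviations of same-numbered arrays had a Pearson's r of 0.23. With the replicate block, the count past the screen was 2, the count at an unadjusted p under 0.05 was 3 (Fgf2 joined) and the median difference was 0.11. With 1 array left out, a group is a single array, which limma takes to vary like the other group. Signal limits the precision as well, as 7 of the 10 genes were among the dimmer 50% of rows.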
